A study of Mus with 6 samples.

Results

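Helper T cell cytokines were followed at the mRNA level in CD4+ T cells that were activated with or without an antibody that neutralizes VEGF-B. The genes were taken by symbol, and 10 were written down: Il2, Ifng, Tnf, Lif, Il21, Il3, Csf2, Lta, Il4 and Tgfb1. Il3 was not analysed here, so that 9 of the 10995 protein-coding genes in the deposited table made up the set. Naive CD4+ T cells from the spleen of wild-type (WT) mice were activated by anti-CD3 at 5 μg/mL together with anti-CD28 at 2 μg/mL, in the presence of 100 U/mL of IL-2 protein. During the same 3 days they received either anti–VEGF-B or, as the control, goat IgG, both at 1 μg/mL, and each group gave 3 libraries for RNA-Seq. The sources used here give no age for these mice and do not say whether the libraries of a group came from separate mice or cultures, so that p-values measure only the spread between these libraries, which may be technical. Apart from the antibody, both groups had the same genotype, stimulation and added IL-2, and no unstimulated group was part of the comparison. The question was how neutralizing VEGF-B during activation changes the transcriptome of these cells, read here for their cytokine genes.

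Cytokines are small secreted proteins through which T cells instruct other cells and themselves. After the T cell receptor and CD28 are engaged, NFAT, AP-1 and NF-kB factors bind the promoters of cytokine genes, and many cytokine mRNAs are short-lived because proteins that bind their untranslated regions speed their decay. IL-2, IL-4 and IL-21 signal through receptors that share the common gamma chain, TNF and lymphotoxin-alpha through receptors of the TNF family, LIF through gp130, GM-CSF (the product of Csf2) through the common beta chain, and IFN-γ and TGF-β1 through receptors of their own. IFN-γ and IL-4 mark different helper lineages, and TGF-β1 restrains T cell responses.

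Values are FPKM, that is, relative to transcript length and to the reads of the library, so that levels can be set side by side between genes. The depth of the libraries is unknown. Changes are log2 fold changes of FPKM + 1, anti–VEGF-B minus IgG, with the standard error (SE), the 95% confidence interval (CI) where given, and the adjusted p of limma over all genes tested. On this scale the change of a gene at low FPKM comes out too small. The summed FPKM of the libraries lay between 260058 and 276622, and 8816 genes whose mean reached 1 FPKM were tested. Across these genes the median change was -0.15, and the changes of cytokine genes are also given relative to this median. Of all genes tested, 2099 fell and 429 rose. With quantile normalization the split was 917 against 869, with libraries scaled to the same median FPKM it was 918 against 1421, and with cyclic loess normalization 954 against 847. The counts also rested on single libraries: without anti–VEGF-B replicate 3 they were 695 and 164, and without IgG replicate 2 they were 1101 and 258. Leaving out replicate 1 of the anti–VEGF-B group gave 1367 genes that fell.

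The libraries carried the markers of the labelled cells. All 8 T cell markers were listed, with summed FPKM of 574–617 with anti–VEGF-B and 566–651 with IgG. Of these, 2 fell and 0 rose, beside 23.8% and 4.87% of all genes tested. Those that fell were Cd3e (-0.51, adjusted p = 0.0197) and Cd5 (-0.38, adjusted p = 0.0343). Both CD8 T cell markers, Cd8a and Cd8b1, were listed, with sums of 2.29–4.69 FPKM. Of the markers of other cell types, 1 of 5 for B cells was listed, with sums of at most 1.34 FPKM, 2 of 4 for NK cells with sums of at most 0.645 FPKM, and 0 of 4 for mast cells and basophils. Of the myeloid markers, 4 of 7 were listed, with sums of 11.4–12.9 FPKM with anti–VEGF-B, 12.8 and 13.1 FPKM in 2 IgG libraries and 28.8 FPKM in IgG replicate 3. Lyz2, the lysozyme gene of macrophages and neutrophils, made up 16.4 FPKM of the last sum, and its part in the values of that library was not tested. Vegfb mRNA, which the antibody to its protein does not target, averaged 6.20 ± 0.278 FPKM with anti–VEGF-B and 7.27 ± 0.650 FPKM with IgG (mean ± SD, n = 3, log2 fold change -0.20, adjusted p = 0.147).

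Of the 9 cytokine genes, 5 fell in T cells under anti–VEGF-B and 1 rose. Those that fell were Lif, Il21, Tnf, Il4 and Lta, Il2 rose, and Tgfb1, Csf2 and Ifng did not pass the test. The 5 genes that fell are 55.6% of the 9, beside 23.8% of all genes tested that fell. The gene that rose is 11.1% of the 9, beside 4.87% of all genes tested that rose. In 6 of the 9 (66.7%) every anti–VEGF-B library lay under every IgG library, as it did in 38.5% of all genes tested, and in Il2 every one lay above, as in 10.5% of all genes tested. The median change of the 9 was -0.49 (-0.34 after the median over all genes was subtracted). For the 7 genes whose groups did not overlap, the exact two-sided permutation test of the mean FPKM, 3 libraries against 3, gave p = 0.1, the smallest it can give. When the variance was not moderated across genes, 0 of the 9 passed (adjusted p between 0.0696 and 0.107 for the 6 genes above), and over all genes 6 fell and 6 rose. In RNA from whole cultures, fewer cells that express a gene and less RNA per cell cannot be told apart.

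**Figure D1:**
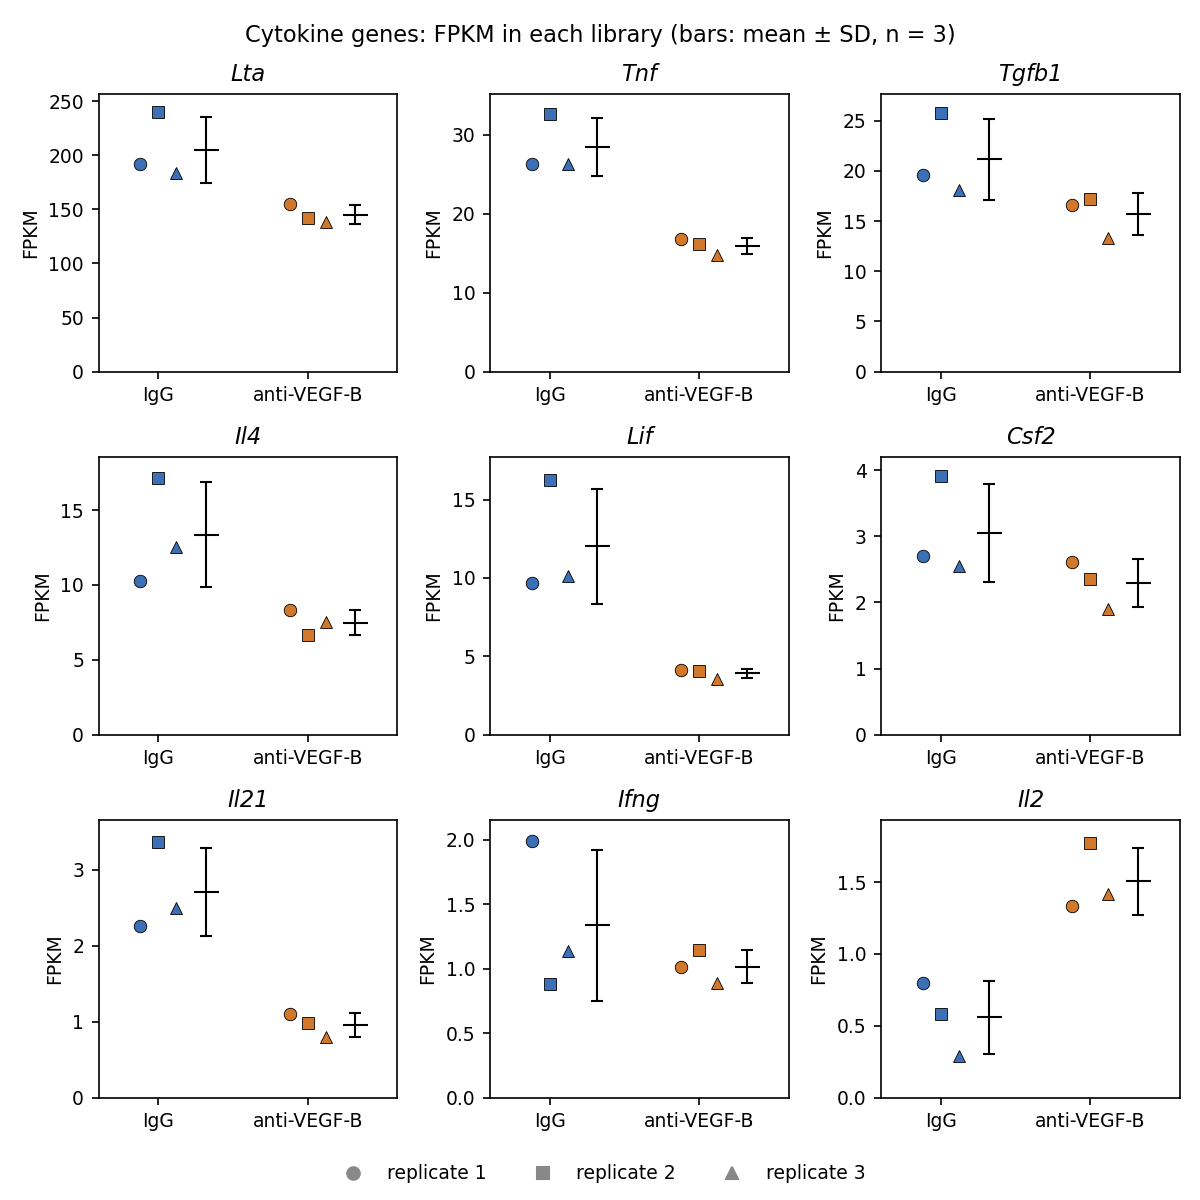
FPKM of each of the 9 cytokine genes (1 panel each, linear axis from 0) in the 3 IgG and the 3 anti–VEGF-B libraries, with a symbol for each replicate number and bars for the mean ± SD. The groups do not overlap in 7 panels, lower with anti–VEGF-B in 6 and higher in that of Il2, and overlap in those of Csf2 and Ifng.

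All 9 genes passed the filter on low values. Il2 passed it through the anti–VEGF-B libraries, since its mean in the IgG libraries was 0.559 FPKM, and Il21 passed it through the IgG libraries, since its mean with anti–VEGF-B was 0.961 FPKM. With no filter, the same 5 genes fell and Il2 rose.

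Of the cytokines of the common gamma chain, IL-2 drives the growth of T cells and acts on the cells that make it. Il2 (ENSMUSG00000027720.7, GRCm38 chr3:37120523-37125959, minus strand) was at 1.33, 1.77 and 1.42 FPKM in the anti–VEGF-B libraries and at 0.801, 0.583 and 0.292 FPKM in the IgG libraries. It was the only one of the 9 that was higher in all 3 anti–VEGF-B libraries than in any IgG library, although its level was low in both groups. The means were 1.51 ± 0.232 and 0.559 ± 0.255 FPKM (SD, n = 3), a ratio of 2.70. The log2 fold change was 0.69 (CI 0.38 to 1.01, SE 0.138, adjusted p = 0.0104), and 0.85 relative to all genes. With a pseudocount of 0.1 FPKM it was 1.36. Added IL-2 protein was present in both groups, and its mRNA is the only form of IL-2 measured here.

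IL-21 is made by helper cells that support B cells. Il21 (ENSMUSG00000027718.8, chr3:37222759-37232636) lay 96.8 kb from Il2 on the same chromosome, and its values were 1.11, 0.981 and 0.796 FPKM with anti–VEGF-B and 2.26, 3.36 and 2.50 FPKM with IgG. Each anti–VEGF-B library had less than any IgG library. The mean with anti–VEGF-B was 35.5% of that with IgG (0.961 ± 0.156 and 2.70 ± 0.581 FPKM). It fell by 0.91 on the log2 scale (CI -1.21 to -0.61, SE 0.132, adjusted p = 0.00499), and its change with a pseudocount of 0.1 FPKM was -1.39. The neighbours Il2 and Il21 therefore moved in opposite directions. The ratio of Il21 to Il2 within a library was 0.830, 0.554 and 0.562 with anti–VEGF-B and 2.81, 5.77 and 8.55 with IgG. That the groups did not overlap follows from the values of Il21 and Il2 themselves. The exact permutation test of the log ratio (two-sided, p = 0.1) is therefore no further evidence.

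IL-4 is the cytokine of type 2 helper cells and the switch factor for IgE in B cells. Il4 (ENSMUSG00000000869.12, chr11:53602982-53618669) was at 8.31, 6.64 and 7.52 FPKM with anti–VEGF-B and at 10.3, 17.2 and 12.6 FPKM with IgG. The lowest IgG library was above the highest anti–VEGF-B library, and the IgG libraries spread more widely. The means were 7.49 ± 0.836 and 13.3 ± 3.50 FPKM, 56.1% of the IgG level, with a log2 fold change of -0.73 (CI -1.10 to -0.37, SE 0.162, adjusted p = 0.0138).

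Il13, another type 2 cytokine that acts on epithelium and smooth muscle, lies 12.65 kb from Il4. It was at 5.37, 4.02 and 4.31 FPKM with anti–VEGF-B and at 9.04, 18.5 and 11.7 FPKM with IgG, and fell by 1.29 on the log2 scale (SE 0.212, adjusted p = 0.00685). The ratio of Il13 to Il4 within a library was 0.609 ± 0.0365 with anti–VEGF-B and 0.963 ± 0.101 with IgG, lower in all 3 anti–VEGF-B libraries (exact permutation test, p = 0.1). Il5, the type 2 cytokine for eosinophils, had means of 2.46 and 3.19 FPKM and groups that overlapped (log2 fold change -0.27, adjusted p = 0.174).

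TNF and lymphotoxin-alpha are related trimeric cytokines whose genes lie side by side in the major histocompatibility complex, with Ltb next to them. TNF activates endothelium and macrophages, and lymphotoxins shape lymphoid tissue. Tnf (ENSMUSG00000024401.14, chr17:35199381-35202007) was at 16.8, 16.2 and 14.8 FPKM with anti–VEGF-B and at 26.4, 32.7 and 26.3 FPKM with IgG. The 3 anti–VEGF-B libraries lay close together and well under the IgG libraries, at 56.1% of their mean (16.0 ± 1.02 and 28.4 ± 3.67 FPKM). The log2 fold change was -0.79 (CI -1.02 to -0.56, SE 0.101, adjusted p = 0.00471).

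Lta (ENSMUSG00000024402.5, chr17:35203165-35205351) had the highest level of the 9 genes, at 155, 142 and 138 FPKM with anti–VEGF-B and 192, 239.6 and 183 FPKM with IgG. The groups did not overlap, and the mean with anti–VEGF-B was 70.8% of that with IgG (145 ± 8.94 and 205 ± 30.3 FPKM). Lta fell by 0.49 on the log2 scale (CI -0.73 to -0.25, SE 0.106, adjusted p = 0.0133). This call was lost without anti–VEGF-B replicate 3 (-0.45, adjusted p = 0.0517) and with libraries scaled to the same median (-0.26, adjusted p = 0.0826). It held with quantile (-0.57, adjusted p = 0.0141) and cyclic loess normalization (-0.55, adjusted p = 0.0148).

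Ltb, which encodes the membrane-bound partner of lymphotoxin-alpha, went the other way. It was at 529, 512 and 564 FPKM with anti–VEGF-B and at 425, 378 and 415 FPKM with IgG, and rose by 0.40 on the log2 scale (SE 0.0789, adjusted p = 0.0103, and 0.0506 without anti–VEGF-B replicate 3). With median scaling its change was 0.63. The ratio of Ltb to Lta within a library was therefore 3.41, 3.60 and 4.09 with anti–VEGF-B and 2.21, 1.58 and 2.26 with IgG, and the ratio of Lta to Tnf was 9.21, 8.78 and 9.29 against 7.30, 7.33 and 6.97. Both ratios were higher in all 3 anti–VEGF-B libraries (exact permutation test, two-sided, p = 0.1 for each). For Ltb to Lta this follows from the values of Ltb and Lta themselves, so that its test is no further evidence. Across the 3 neighbouring genes, Tnf was thus lower by the most, Lta by less, and Ltb was higher.

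LIF, a gp130 cytokine of the IL-6 family, is made by activated T cells and is best known for keeping stem cells undifferentiated. Lif (ENSMUSG00000034394.14, chr11:4257557-4272514) was at 4.10, 4.07 and 3.55 FPKM with anti–VEGF-B and at 9.67, 16.3 and 10.1 FPKM with IgG. It had the largest change of the 9 genes, with a mean with anti–VEGF-B at 32.5% of that with IgG (3.90 ± 0.309 and 12.01 ± 3.69 FPKM). The log2 fold change was -1.37 (CI -1.76 to -0.99, SE 0.172, adjusted p = 0.00469), and -1.22 relative to all genes.

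Osm, which encodes oncostatin M of the same family, lies 16.53 kb from Lif. It was at 1.41, 0.886 and 1.27 FPKM with anti–VEGF-B and at 3.09, 6.48 and 3.93 FPKM with IgG, and fell by 1.29 on the log2 scale (SE 0.205, adjusted p = 0.00634). The ratio of Osm to Lif overlapped between the groups (0.306 ± 0.0765 and 0.369 ± 0.0430, exact permutation test, p = 0.3).

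The last 3 cytokine genes did not pass the test. Tgfb1 (ENSMUSG00000002603.15, chr7:25687002-25705077) was at 16.6, 17.2 and 13.3 FPKM with anti–VEGF-B and at 19.6, 25.8 and 18.1 FPKM with IgG. Its groups lay apart, with means of 15.7 ± 2.11 and 21.2 ± 4.05 FPKM, and the log2 fold change was -0.40 (CI -0.71 to -0.084, SE 0.140, adjusted p = 0.0588). Without IgG replicate 3, the IgG library with the least Tgfb1, it was -0.50 (adjusted p = 0.0437). It was -0.25 without IgG replicate 2 and -0.18 with median scaling (adjusted p = 0.267).

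GM-CSF acts on myeloid cells. Csf2 (ENSMUSG00000018916.5, chr11:54247271-54249667) was at 2.62, 2.35 and 1.91 FPKM with anti–VEGF-B and at 2.70, 3.91 and 2.56 FPKM with IgG, and the groups overlapped. The log2 fold change was -0.29 (CI -0.62 to 0.038, SE 0.146, adjusted p = 0.157, exact permutation p = 0.2), so that 0 lies within its interval. It was -0.15 without IgG replicate 2, and with quantile, cyclic loess and median scaling it was -0.054, -0.053 and -0.12.

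IFN-γ is the cytokine of type 1 helper cells and activates macrophages. Ifng (ENSMUSG00000055170.4, chr10:118441046-118445892) was at 1.01, 1.14 and 0.890 FPKM with anti–VEGF-B and at 1.99, 0.880 and 1.14 FPKM with IgG. A single IgG library, replicate 1, was above the rest, and the lowest value was also an IgG library. The log2 fold change was -0.19 (CI -0.56 to 0.18, SE 0.164, adjusted p = 0.404, exact permutation p = 0.7). Its sign turned without IgG replicate 1 (0.0065) and with quantile or cyclic loess normalization (0.0088 and 0.014).

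**Figure D2:**
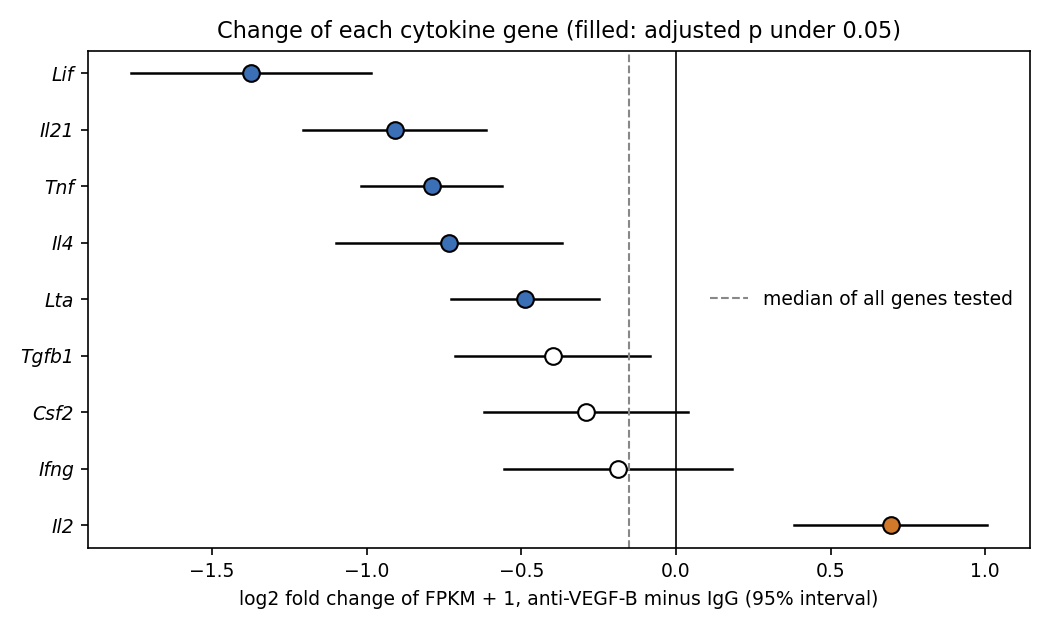
Log2 fold change of FPKM + 1 (anti–VEGF-B minus IgG) of the 9 cytokine genes with 95% intervals, filled where the adjusted p was under 0.05, and a dashed line at the median of all genes tested (-0.15). Values run from -1.37 for Lif to 0.69 for Il2, and the intervals of Csf2 and Ifng include 0.

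The spread between libraries differed between the groups. The coefficient of variation of the 9 genes ran from 6.16% (Lta) to 16.2% (Il21) with anti–VEGF-B and from 12.9% (Tnf) to 45.7% (Il2) with IgG, beside medians over all genes tested of 9.12% and 10.6%. IgG replicate 2 had the highest value of the 6 libraries in 7 of the 9 genes, all but Il2 and Ifng, as it had in 50.9% of all genes tested. Anti–VEGF-B replicate 3 had the lowest value in 6 of the 9, as in 35.7% of all genes tested. The median FPKM of the genes tested was 7.08 in IgG replicate 2, 6.20 and 6.39 in the other IgG libraries and 5.43–5.67 with anti–VEGF-B.

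Levels per length ordered the genes in much the same way in both groups, except that Il2 and Il21 changed places. With IgG the order was Lta, Tnf, Tgfb1, Il4, Lif, Csf2, Il21, Ifng and Il2. The values of Il4 and Lif overlapped, as did those of Csf2 and Il21. With anti–VEGF-B it was Lta, Tnf, Tgfb1, Il4, Lif, Csf2, Il2, Ifng and Il21, and the values of Tnf and Tgfb1 overlapped, as did those of Ifng and Il21. Il2 was ninth of the 9 in each IgG library and seventh in each anti–VEGF-B library, while Il21 was seventh in each IgG library and eighth or ninth with anti–VEGF-B. By its mean over the 6 libraries, Lta stood at percentile 97.9 of all genes listed, Tnf at 84.8, Tgfb1 at 81.9, Il4 at 71.5, Lif at 66.0, Csf2 at 40.3, Il21 at 32.1, Ifng at 23.0 and Il2 at 20.4.

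Among the 9 cytokine genes, Lta made up most of the summed FPKM. The summed FPKM of the 9 genes was 207, 193 and 182 with anti–VEGF-B and 266, 340.2 and 257 with IgG. Lta took 74.9%, 73.9% and 75.7% of it with anti–VEGF-B and 72.3%, 70.4% and 71.3% with IgG, a larger share in each anti–VEGF-B library. Without Lta the sums were 51.9, 50.4 and 44.2 FPKM against 73.7, 100.6 and 73.5 FPKM.

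Several of the cytokine genes sit in clusters with other cytokine genes, and genes listed within 100 kb of each were set beside them. Around Tnf, 13 such genes were tested, of which 3 fell (Lta, H2-D1 and D17H6S53E) and 1 rose (Ltb), beside 23.8% and 4.87% of all genes tested. Nfkbil1, on the far side of Lta, was at 0.014 on the log2 scale (adjusted p = 0.917). Around Il4, 3 of 4 fell, namely Il13, Rad50 (-0.52, adjusted p = 0.0243) and Sept8 (-0.73, adjusted p = 0.00954), whereas Kif3a had -0.24 (adjusted p = 0.0907). Sept8 passed the filter on low values through the IgG libraries, with means of 0.775 FPKM with anti–VEGF-B and 1.96 FPKM with IgG. Around Lif, 1 of 4 fell (Osm) and 1 rose (Gatsl3, 0.30, adjusted p = 0.0486), and Sf3a1 and Tbc1d10a had -0.086 and 0.12. Beside Il2 and Il21 lie Bbs12, which fell by 0.81 on the log2 scale (adjusted p = 0.00735), and 4932438A13Rik at -0.093 (adjusted p = 0.488). Around Tgfb1, 1 of 7 fell, the receptor tyrosine kinase gene Axl (-0.68, adjusted p = 0.0200). No other gene was listed within 100 kb of Ifng or Csf2.

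**Figure D3:**
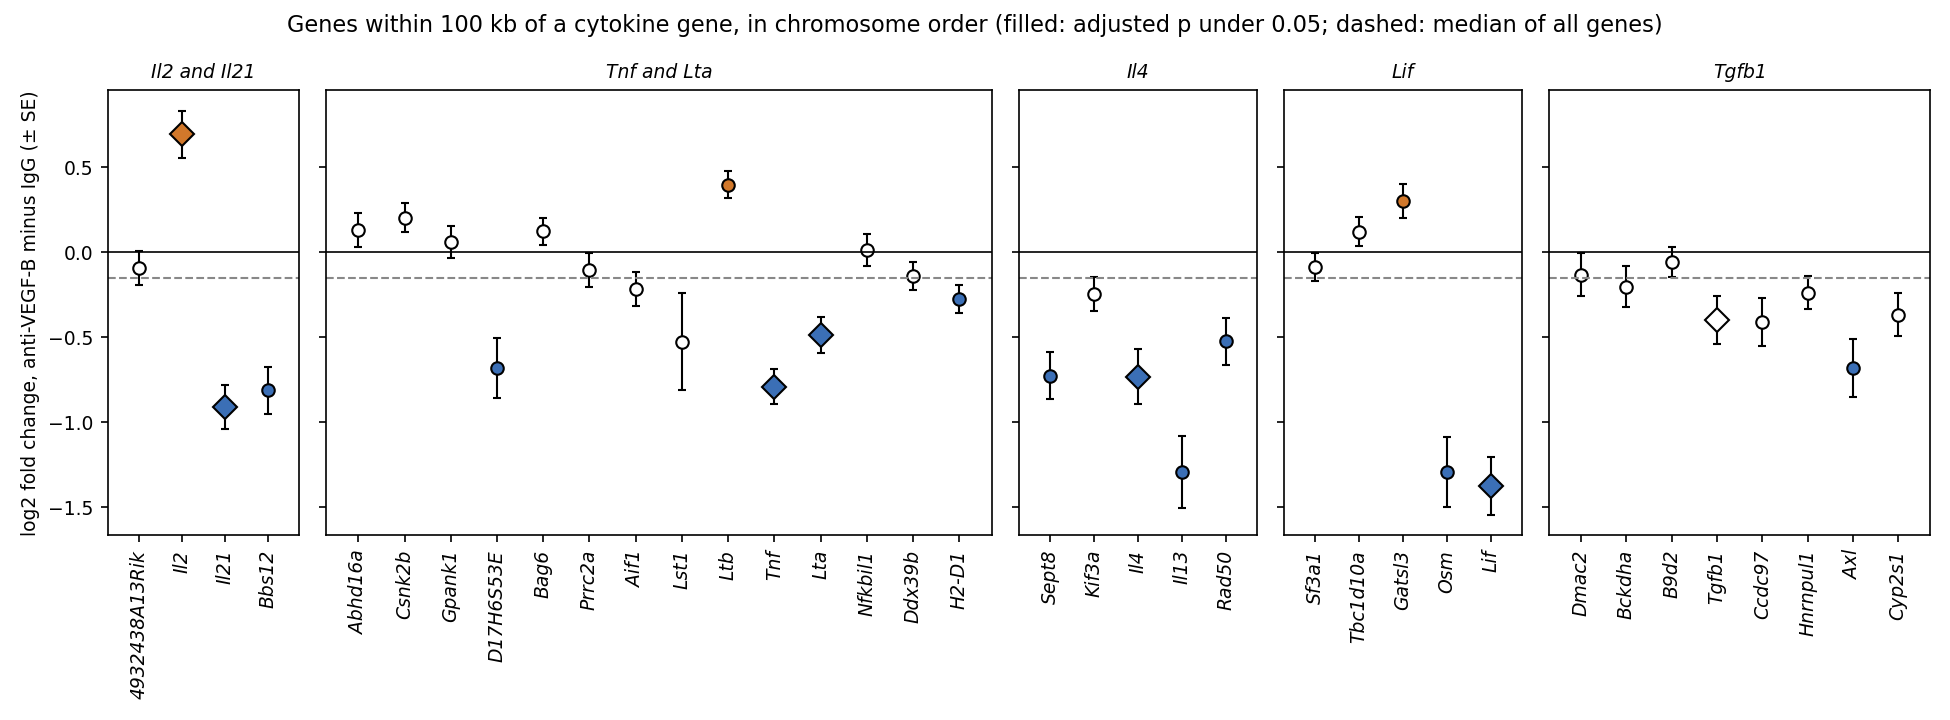
Log2 fold change (± SE) of each cytokine gene and of the genes listed within 100 kb of it, in the order they have along the chromosome (positions not to scale), filled where the adjusted p was under 0.05, with a dashed line at the median of all genes tested. Ltb (0.40) stands above 0 beside Tnf (-0.79) and Lta (-0.49), and Il2 (0.69) beside Il21 (-0.91).

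Among the receptor chains for these cytokines, Il2ra, Il2rg and Il21r fell by more than the others. The list held 20 genes, of which 15 were tested, 5 fell and 0 rose, beside 23.8% and 4.87% of all genes tested. Its median change was -0.18, close to the -0.15 of all genes. Il2ra, the chain that gives the IL-2 receptor its high affinity, was at 65.7, 57.5 and 51.8 FPKM with anti–VEGF-B and at 94.9, 149.7 and 106 FPKM with IgG (log2 fold change -0.97, SE 0.157, adjusted p = 0.00665). Il2rg, the common gamma chain, was at 32.02 ± 0.336 and 51.7 ± 6.91 FPKM (-0.67, adjusted p = 0.00496), and Il21r at 19.3 ± 3.45 and 38.9 ± 8.74 FPKM (-0.97, adjusted p = 0.00756). Il2rb, the signalling chain that IL-2 shares with IL-15, was at 409 ± 12.3 and 385 ± 19.2 FPKM (0.090, adjusted p = 0.365). Il2, whose mRNA rose, thus stood beside a lower Il2ra and Il2rg in the same libraries.

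Csf2ra (1.26 ± 0.217 and 2.00 ± 0.195 FPKM, -0.41, adjusted p = 0.0258) and Tgfbr1 (4.83 ± 0.121 and 6.18 ± 0.170 FPKM, -0.30, adjusted p = 0.0326) also fell, but neither call held with quantile, median or cyclic loess scaling. The others did not pass the test. Il4ra had a log2 fold change of -0.18, Ifngr1 0.022, Ifngr2 0.081, Tnfrsf1a -0.37, Tnfrsf1b -0.012, Il6st (gp130) -0.20, Il3ra 0.080, Tgfbr2 0.026 and Tgfbr3 -0.082. Il13ra1 was under the filter and had 0.16 in the fit over all genes. Quantile and cyclic loess normalization each gave 3 genes that fell and 0 that rose. With median scaling the split of the list was 3 lower against 4 higher, beside 918 against 1421 over all genes. Leaving out anti–VEGF-B replicate 2, its replicate 3 or IgG replicate 2 gave 3 genes that fell.

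Of 40 other cytokine genes of T cells 19 were tested, of which 6 fell and 1 rose, beside 23.8% and 4.87% of all genes tested. Their median change was -0.30. Besides Il13, Osm and Ltb, Ebi3, a subunit shared by IL-27 and IL-35, fell from 27.4 ± 1.15 to 22.02 ± 0.417 FPKM (-0.30, adjusted p = 0.0171, and 0.0657 without anti–VEGF-B replicate 3 and 0.443 with median scaling). The count depended on single libraries: 2 genes passed without anti–VEGF-B replicate 3, and 4 passed without anti–VEGF-B replicate 2 and equally without replicate 2 or 3 of the IgG group. Quantile and cyclic loess normalization each gave 3 that fell and 2 that rose. With median scaling 2 fell and 3 rose, beside 918 and 1421 of all genes.

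Factors that bind cytokine promoters moved both ways. Of 38 tested, 14 fell and 5 rose, beside 23.8% and 4.87% of all genes tested, with a median change of -0.19. Egr1, an immediate early factor of T cell receptor signalling, averaged 7.28 ± 2.42 FPKM with anti–VEGF-B against 28.1 ± 9.50 FPKM with IgG (-1.82, adjusted p = 0.00491). Irf4, whose level follows the strength of receptor signalling, was at 28.7 ± 5.25 and 96.0 ± 34.2 FPKM (-1.67, adjusted p = 0.00488), and Nfatc1, an NFAT gene that is induced by activation, at 9.23 ± 1.19 and 17.4 ± 2.78 FPKM (-0.84, adjusted p = 0.00527). Cebpb, which encodes the bZIP factor C/EBPβ, rose from 32.98 ± 4.18 to 79.8 ± 8.07 FPKM (1.25, adjusted p = 0.00279). The others that rose were Bhlhe40 (0.55), Crem (0.53), Ikzf2 (0.42) and Fosl2 (0.30). Egr2 (-0.68), Egr3 (-0.68), Fosl1 (-0.83), Fos (-0.65), Fosb (-0.38) and Jund (-0.44) also fell. So did Batf (-0.48), Ikzf3 (-0.60), Nfkb2 (-0.34), Relb (-0.34) and Gata3 (given below). Fosl1 and Fosb passed the filter through the IgG libraries, since their means with anti–VEGF-B were 0.873 and 0.790 FPKM.

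Of the factors that set the helper lineages, Gata3 fell and Tbx21 did not pass the test. Gata3, the type 2 factor that acts on Il4 and Il13, was at 18.8 ± 2.42 and 26.0 ± 3.51 FPKM (-0.44, adjusted p = 0.0256). Relative to all genes the change of Gata3 was -0.29. Its call under other settings is not given here, and its part in the values of Il4 and Il13 was not tested. Tbx21, the type 1 factor for Ifng, was at 14.1 ± 0.814 and 14.5 ± 2.75 FPKM (-0.025, adjusted p = 0.892). Gata3 and Tbx21 were singled out after their values were seen. Of the other factors of the list, Stat6 (-0.11, adjusted p = 0.361) and Maf (-0.12, adjusted p = 0.354) did not pass the test either. Nor did Stat4 (0.12, adjusted p = 0.368) and Bcl6 (-0.18, adjusted p = 0.266), whereas Irf4 and Batf, given above, fell. The split of the list was 9 lower against 5 higher with quantile and with cyclic loess normalization. With median scaling it was 8 lower against 7 higher, beside 918 against 1421 over all genes. Without anti–VEGF-B replicate 3, 7 genes of the list passed, 11 without its replicate 1 and 12 without IgG replicate 2.

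Among 17 tested genes for decay and stability of cytokine mRNA, 4 fell and 1 rose, beside 23.8% and 4.87% of all genes tested. The median was -0.16 beside -0.15 for all genes. Zc3h12d (-0.76, adjusted p = 0.00872) and Zc3h12a (-0.59, adjusted p = 0.0168), which encode RNases of the Regnase family, fell, as did Zfp36l1 (-0.63, adjusted p = 0.0169, and adjusted p = 0.108 with median scaling), a member of the tristetraprolin family that targets AU-rich elements, and Arid5a (-0.73, adjusted p = 0.0402), which encodes a protein that stabilizes cytokine mRNA. Zfp36l2, a relative of Zfp36l1, rose from 165.9 ± 14.1 to 209.7 ± 5.61 FPKM (0.34, adjusted p = 0.0170), and its change was 0.57 with median scaling. Without anti–VEGF-B replicate 3 the count was 2, and the calls of Zc3h12a (adjusted p = 0.0598), Zfp36l2 (adjusted p = 0.0614) and Arid5a were lost.

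Genes known to respond to the cytokines, or to serve their signalling or activation, were read from 4 further lists. These lists share genes with each other and with those above (14 genes stood in more than 1 list). The IFN-γ targets had the lowest median, -0.57, and 17 of 25 tested fell while 0 rose, beside 23.8% and 4.87% of all genes tested. Ifng itself did not pass the test. Irgm2, an interferon-inducible GTPase, was at 3.19 ± 0.792 and 10.6 ± 2.86 FPKM (-1.46, adjusted p = 0.00469), Icam1, an adhesion ligand, at 6.76 ± 1.03 and 17.3 ± 2.87 FPKM (-1.24, adjusted p = 0.00469), and Cd274, which encodes PD-L1, at 20.3 ± 1.76 and 34.8 ± 4.74 FPKM (-0.75, adjusted p = 0.00499). Gbp7 also fell (-1.15, adjusted p = 0.00491). With the other scalings 13 or 14 genes fell. Many of these genes also answer to type I interferons, which the list cannot separate.

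Of 24 genes for IL-2 and STAT5 signalling, 11 fell and 2 rose, beside 23.8% and 4.87% of all genes tested. The median was -0.41. Pim1, a kinase gene induced through STAT5, was at 101.5 ± 10.1 and 164 ± 16.4 FPKM (-0.69, adjusted p = 0.00491), and Socs2, a feedback inhibitor, at 1.13 ± 0.159 and 3.201 ± 0.975 FPKM (-0.96, adjusted p = 0.00685). The genes that rose were Pim2 (0.47, adjusted p = 0.00714) and Nfil3 (0.43, adjusted p = 0.00845). With median scaling the change of Pim1 was -0.46, and 9 genes of the list fell and 4 rose. Quantile normalization gave 10 that fell and 2 that rose, and cyclic loess gave 12 and 2.

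Of 26 genes for TNF and NF-kB signalling, 10 fell and 1, Nfkbiz (0.48, adjusted p = 0.0175), rose, beside 23.8% and 4.87% of all genes tested. The median was -0.22. Nfkbid (-1.06, adjusted p = 0.00488) and Nfkbie (-0.93, adjusted p = 0.00657), which encode IkB proteins, and the kinase gene Map3k8 (-0.60, adjusted p = 0.00491) fell. With median scaling the change of Map3k8 was -0.38. The split of the list was then 4 against 4, beside 918 against 1421 over all genes. It was 7 lower against 1 higher with quantile and with cyclic loess normalization. Without anti–VEGF-B replicate 3 the count was 4, and without IgG replicate 2 it was 5. The call of Nfkbiz was lost in both and also without anti–VEGF-B replicate 2.

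Of 22 genes for TGF-β activation and its targets, 3 fell and 1 rose, beside 23.8% and 4.87% of all genes tested. The median was 0.014, above that of all genes. Furin, the protease that processes the TGF-β1 precursor, was at 13.5 ± 2.46 and 22.5 ± 4.005 FPKM (-0.70, adjusted p = 0.0126). The calls of Lrrc32 (-0.36, adjusted p = 0.0344) and Ltbp3 (0.32, adjusted p = 0.0419) were each lost in most fits that left out 1 library. The list had 1 call without anti–VEGF-B replicate 1 or IgG replicate 3. It had 2 when replicate 2 of either group or anti–VEGF-B replicate 3 was left out. Quantile and cyclic loess normalization each gave 2 that fell and 2 that rose. With median scaling 1 gene fell and 6 rose, beside 918 and 1421 of all genes.

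**Figure D4:**
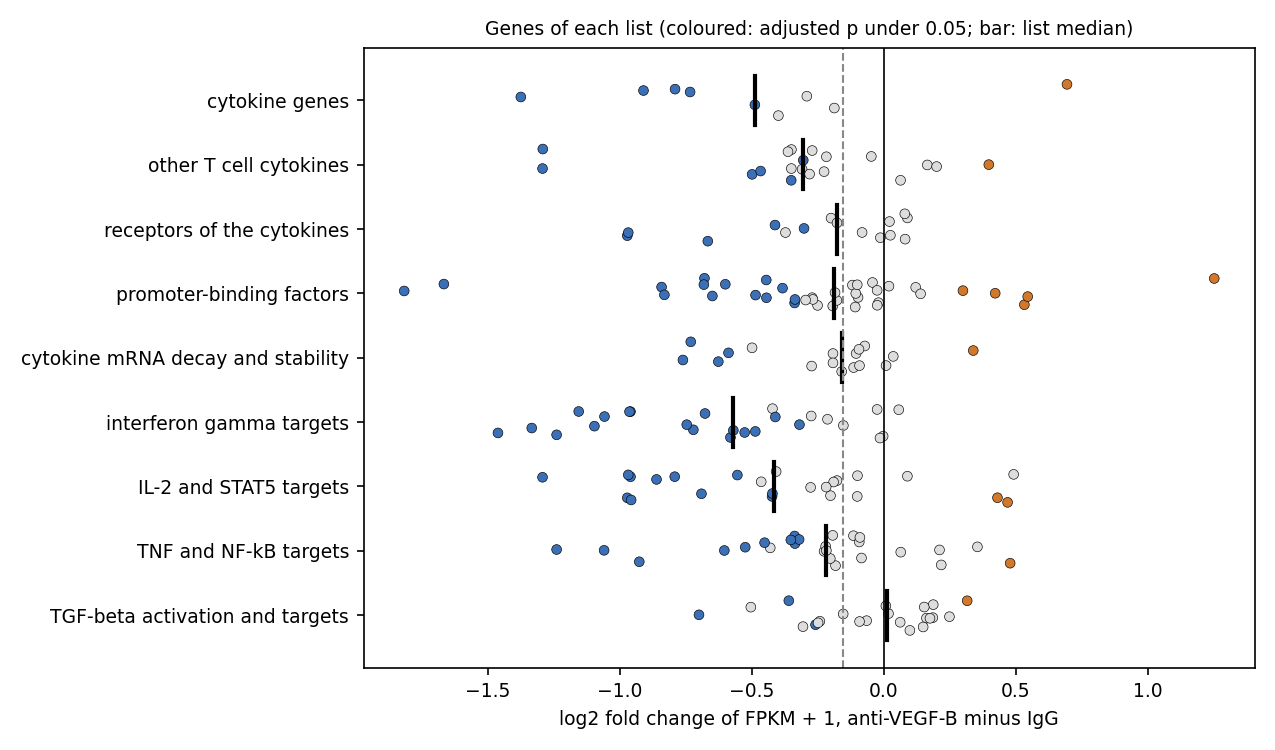
Log2 fold change of every tested gene in the cytokine set and in each of the 8 other lists (points, filled where the adjusted p was under 0.05), with the median of each list as a bar and a dashed line at the median of all genes tested. The lists for IFN-γ targets (-0.57), the cytokine genes (-0.49) and IL-2 and STAT5 targets (-0.41) have the lowest medians.

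The 6 markers of activated T cells summed to 439–503 FPKM with anti–VEGF-B and 571–706 FPKM with IgG, and 4 of the 6 fell, beside 23.8% of all genes tested. Mki67, the gene of the proliferation antigen Ki-67, had the lowest p of them, at 2.09 ± 0.172 and 7.69 ± 1.64 FPKM (-1.48, adjusted p = 0.00279), and Il2ra, Icos (-0.29, adjusted p = 0.0236) and Tnfrsf9 (-0.31, adjusted p = 0.0412) were the others. Relative to all genes, the changes of Icos and Tnfrsf9 were -0.14 and -0.16. Cd44 and Tnfrsf4 had -0.18 and -0.20 and did not pass. The part of activation state or division in the values of the cytokine genes was not tested.

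**Figure D5:**
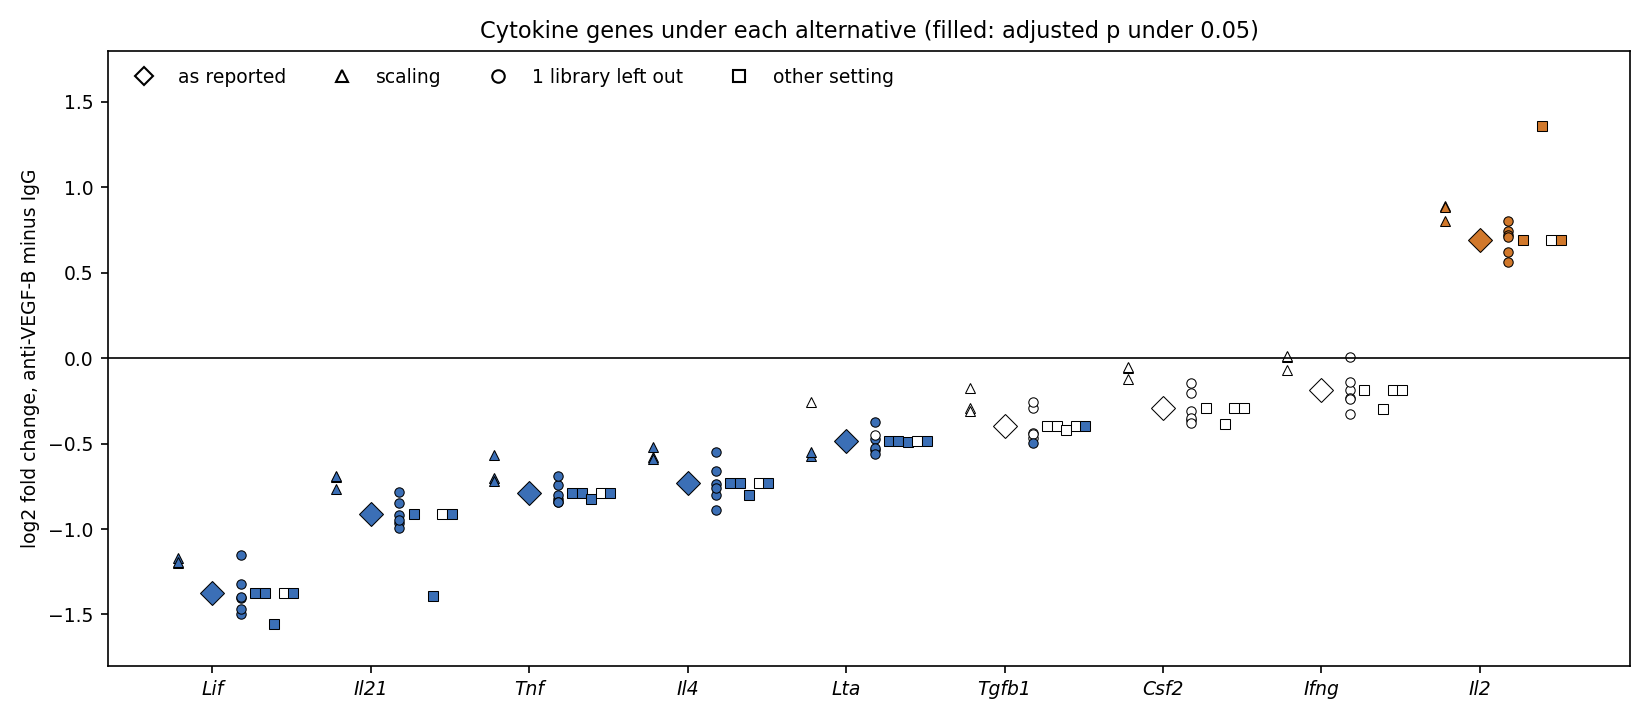
Log2 fold change of the 9 cytokine genes as reported and under each alternative (other scalings, leaving out 1 library, other settings), filled where the adjusted p was under 0.05. Lif, Il21, Tnf and Il4 stay under 0 and Il2 above 0 throughout, while Ifng lies on both sides of 0.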

How the data were processed

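RNA was measured in CD4+ T cells, in 3 libraries for anti–VEGF-B and 3 for IgG. The authors aligned single-end reads of stranded libraries to GRCm38/mm10 with hisat2, used StringTie and Ballgown, and deposited FPKM for protein-coding genes. The filter behind the listed genes and the use of strand in counting are not given in the sources used here. The table is named as raw data, but it holds decimals, and whole reads could not be recovered, since at most 0.935% of low genes shared a ratio between libraries. Depth is therefore unknown, and 0 sample columns were left unused. The study states no model for RNA-Seq.

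With R 4.3.3 and limma 3.58.1, log2(FPKM + 1) was fitted (empirical Bayes with trend, no covariate) for genes whose mean over the 6 libraries reached 1 FPKM, with Benjamini-Hochberg adjustment over all of them. "Fell" and "rose" mean an adjusted p under 0.05. Single genes and ratios were compared by the exact two-sided permutation test. Named were all cytokine genes, their receptor chains, up to 4 genes with the lowest p among those called from each other list, and Vegfb. The cytokine genes and lists were chosen with earlier results of these data known, and the genes within 100 kb and the ratios within a library were chosen after the cytokine values were seen. Genes named outside this rule are the neighbours, the markers, Il5, Arid5a, Bhlhe40, Crem, Ikzf2, Fosl2, Gata3, Tbx21, Pim2, Nfil3 and Nfkbiz. So are the remaining promoter-binding factors that fell, and Stat4, Stat6, Maf and Bcl6. Alternatives changed the scaling, filter, pseudocount, moderation, thresholds, replicate block and libraries. The fit was tested on simulated data. A gene that was tested is not reported here.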

Additional observations from a re-analysis of the deposited data

How the results depend on the processing

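Lif, Il21, Tnf, Il4 and Il2 kept their direction and their call in every alternative that tested them except the fit with no moderation of the variance, where the adjusted p of the 6 called cytokine genes lay between 0.0696 and 0.107. In that fit 0 cytokine genes fell and 0 rose (6 had an unadjusted p under 0.05), and over all genes 6 fell and 6 rose. Lta and Tgfb1 are given with the genes. With the filter at 5 FPKM, 0 of the 5 cytokine genes tested rose, Il2 not being among them, and 989 of all genes fell. Over all genes, 917 fell and 869 rose with quantile normalization, 918 and 1421 with median scaling, 954 and 847 with cyclic loess, and 998 and 123 by an unadjusted p under 0.05 and a log2 change over 0.5 either way. Leaving out 1 library gave 4–6 cytokine genes that fell, 695–2071 of all genes that fell and 164–396 that rose. It gave 3–5 receptor genes, 2–9 other cytokines, 7–16 promoter-binding factors, 2–6 genes of mRNA decay, 4–10 of TNF and NF-kB and 1–3 of TGF-β. Quantile normalization gave 3 receptor genes. The cause of these shifts was not tested. Whether the numbers shared by the groups pair the libraries is not known. Correlations were -0.0296, 0.11 and 0.0891 for same-numbered libraries and between -0.175 and 0.0997 for the others, which cannot settle it. With the replicate block 6 cytokine genes fell, Tgfb1 added (adjusted p = 0.0214), and 1 rose.

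Signs that turned, none with an adjusted p under 0.05, were those of Ifng (0.0088 quantile, 0.014 loess, 0.0065 without IgG replicate 1, with a range of -0.33 to 0.0065 over the libraries left out), Il2rb (-0.0080 loess), Ifngr1 (-0.025 without anti–VEGF-B replicate 1, range -0.048 to 0.10 over the libraries left out), Tnfrsf1b (0.048 quantile, 0.21 median, 0.025 loess, range -0.081 to 0.059 over the libraries left out), Il6st (0.031 quantile, 0.022 loess), Il4ra (0.055 median), Tgfbr2 (range -0.020 to 0.064 over the libraries left out), Tgfbr3 (0.098 quantile, 0.12 median, 0.092 loess, range -0.18 to 0.0011 over the libraries left out) and Vegfb (0.0072 median). With no depth known, the spread between libraries is the only error, and differences between genes near 1 FPKM are the least certain.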
